A study of Mus musculus with 8 samples.

Results

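The synaptic vesicle and active zone genes are a list of 37 genes whose products store, dock, fuse and recover the vesicles that hold neurotransmitter. Their RNA was followed on 8 one-colour arrays of motor neurons derived from mouse embryonic stem cells. Members were found by matching the RefSeq accession that each probe carries to a gene symbol. Of the 37 genes, 36 had a mapped probe, all but Syt5, and 34 were bright enough to test, out of 24623 genes tested in all. Syt2 rose above background on 4 of 8 arrays, never on both of a group, and Rimbp2 on none, so neither was tested.

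All cells were male and came from an Hb9GFP line, in which green fluorescent protein reports motor neuron identity. Control cells, called wild type in the series' design text, and cells of the same kind with a knockout of Litchi were each sampled on days 7 and 9, and every one of the 4 groups has 2 arrays. Per the labels' protocols, all groups received retinoic acid and Shh, the signals that direct stem cells to spinal motor neurons, from day 2 to day 5. The embryoid bodies were then split into single cells and kept with GDNF, a survival factor of motor neurons, until sampling. The labels give no cell sorting, no number of knockout clones and no source for the replicates, so a p-value here speaks only of how far these samples scatter, and that scatter may be technical. Litchi was not among the gene names used here, so the targeted gene was not checked against the labels.

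At a presynaptic terminal, vesicles are filled with transmitter, held in a cluster by synapsins and brought to the active zone, a protein scaffold opposite the target cell. There the vesicle SNARE protein pairs with SNARE proteins of the plasma membrane, and calcium bound to a synaptotagmin triggers fusion. Dynamin, amphiphysin, endophilin, synaptojanin and clathrin adaptors then take the membrane back. Motor neurons use this machinery to release acetylcholine onto muscle, and its genes rise in activity as neurons mature.

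Values below are log2 processed signal minus the array's 75th percentile, so 0 is the level below which 75% of the spots lie and each unit is a doubling. That percentile was 649 on the dimmest array and 1691 on the brightest, in intensity units, with 55.9% to 67.9% of spots per array well above background. Levels of different genes come from different probes and are not compared. Of the 34 genes, 32 were well above background on all 8 arrays, including Syp, Syn1, Syt1, Vamp2, Snap25 and Rab3a. The exceptions were Sv2c, below background on 1 knockout array of day 9, and Rph3a, above it on 5 arrays and kept only through the control cells of day 9. All 16 general neuronal markers measured were above background on every array, and so were the 9 motor neuron markers measured.

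Knockout cells held less RNA of synaptic vesicle and active zone genes than control cells, by a median of -0.44 on the log2 scale on day 7 and -0.90 on day 9, against -0.05 and -0.02 for all genes tested. On day 9, 14 of the 34 genes (41.2%) passed the test and all 14 were lower, while 3.94% of all genes tested were called lower. The 14 were Syp, Sv2a, Syn1, Syn2, Syt3, Syt4, Syt7, Vamp1, Rab3a, Rph3a, Bsn, Erc2, Ppfia2 and Snap91, with falls between 1.75-fold and 2.94-fold apart from Rph3a. Rph3a entered the test only through the group where it was high, control cells of day 9, and was above background on 1 of 2 knockout arrays of that day, so 13 calls remain without it and its fold of 3.76 is uncertain. On day 7, 0 of the 34 passed in limma's test, with 15 lower and 0 higher at an unadjusted p under 0.05, and 0.203% of all genes were called in either direction. A gene was called at a Benjamini-Hochberg adjusted p under 0.05 over all genes, from limma's moderated test on all 8 arrays. In bulk RNA, fewer cells of a type and less RNA per cell cannot be told apart.

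The day 9 count moved with single arrays, and so did the count over all genes, which was 1343 with all 8 arrays and lower on every omission. Leaving out either replicate of control day 7 gave 8 calls, and either replicate of knockout day 7 gave 6. For control day 9 the count was 0 on leaving out replicate 1 and 5 on leaving out replicate 2. For knockout day 9 it was 2 and 0, in the same order. It was also 0 with no filter on dim probes, where 1 of all 37256 genes was called. From the 4 arrays of that day alone it was 0 too, with 52 of all 24623 genes called. The 32 genes above background on all arrays gave 17 calls, all lower, of which 13 were among the 14. The direction was steadier than the calls: in every one of these fits and under every scaling tried, between 31 and 34 of the genes lay below control on day 9.

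Both knockout arrays lay below both control arrays in 25 of the 34 genes on day 7 (73.5%), where 27.8% of all genes did so. On day 9 that held for 32 genes (94.1%), all but Sv2b and Vamp2, against 32.5% of all genes. The 32 include Rph3a, whose direction the filter favoured. All 4 knockout arrays lay below all 4 control arrays in 18 of the 34 (52.9%), against 8.59% of all genes. The change was negative on both days in 31 of the 34 (91.2%), against 40.7% of all genes, and the fall was larger on day 9 in 29. Across the 34 genes the changes of the 2 days, which come from separate arrays, had a Pearson r of 0.405 and a Spearman rho of 0.221, given as a description since genes are not independent replicates.

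With both days averaged, which sets 4 knockout arrays against 4 control arrays, 23 of the 34 genes (67.6%) were called, all lower, against 9.23% of all genes called lower, and 22 were called without Rph3a. The median of the 34 genes was -0.73, against -0.04 for all genes. Of 16 general neuronal markers, 14 (87.5%) were called lower in the same comparison, a count that ran from 1 to 15 under other settings. Of the 34 genes, the 11 not called were Sv2b, Sv2c, Syn3, Vamp2, Snap25, Cplx2, Rims1, Rims2, Unc13a, Amph and Synj1. On leaving out replicate 1 of control day 7 the count was 14, and 10 on leaving out replicate 1 of control day 9. Leaving out replicates 1 and 2 of knockout day 7 in turn gave 12 and 11, and those of knockout day 9 gave 8 and 4. It was 2 with no filter on dim probes, where 221 of all 37256 genes were called. Over all genes tested, 3624 were called with all 8 arrays and fewer on every omission.

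**Figure D1:**
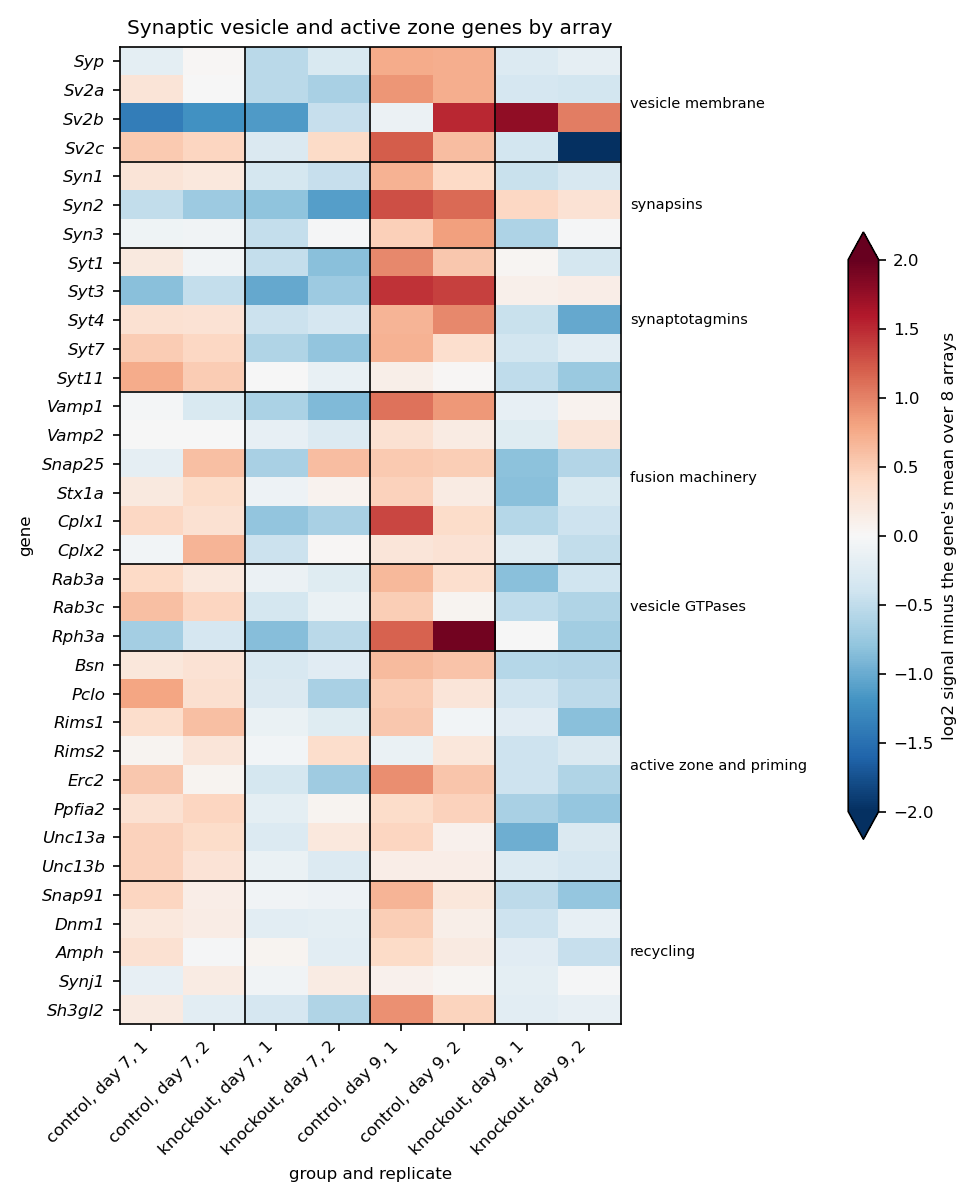
Log2 signal of the 34 genes tested, each minus its own mean over 8 arrays, with one column per array and rows grouped by role; red is higher and blue lower, and the colour scale ends at -2 and 2. The knockout columns are blue in most rows on both days, while control day 9 is red for nearly all genes. The Sv2b row splits by day instead, blue in every day 7 column and red in both knockout columns of day 9.

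Promoters of 3 genes called lower for the mean of both days are printed beside that of Sv2b, which was not called. They were picked from the list and do not stand for it. The sequences are the 250 bases before the start site in RefSeq on GRCm38.p6, 5′ to 3′ on the gene's strand, and 28 of the 34 genes tested had an entry. Capitals mark matches, on either strand, to 6 motifs: the GC box GGGCGG, bound by Sp1 family factors; CRE, TGACGTCA, bound by CREB; the left part TTCAGCACC and the right part GGACAGC of RE1, the element bound by the neuronal repressor REST; the TATA box TATAAA; and the E-box CAGCTG, of the kind that proneural factors bind. In Syp (chrX:7638330-7638579, plus strand) the capitals are 2 GC boxes, 67 and 49 bases before the start. In Syn1 (chrX:20920919-20921168, minus strand) they are the RE1 left part, 232 bases before the start, and a CRE at 159. In Sh3gl2 (chr4:85205206-85205455, plus strand) they are an E-box at 178, GC boxes at 83 and 43, the latter on the other strand, and a CRE at 37 that abuts it. In Sv2b (chr7:75309263-75309512, minus strand, the first of 4 start sites) they are a TATA box on the other strand at 50.
Syp: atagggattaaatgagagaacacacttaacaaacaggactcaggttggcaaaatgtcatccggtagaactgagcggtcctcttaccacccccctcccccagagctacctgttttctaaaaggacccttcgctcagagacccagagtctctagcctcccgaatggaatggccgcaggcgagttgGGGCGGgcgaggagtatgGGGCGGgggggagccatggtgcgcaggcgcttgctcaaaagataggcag
Syn1: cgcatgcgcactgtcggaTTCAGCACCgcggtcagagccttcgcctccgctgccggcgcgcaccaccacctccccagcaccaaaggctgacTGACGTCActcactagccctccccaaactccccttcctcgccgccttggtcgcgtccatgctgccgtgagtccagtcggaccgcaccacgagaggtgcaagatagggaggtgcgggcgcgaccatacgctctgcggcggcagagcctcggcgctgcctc
Sh3gl2: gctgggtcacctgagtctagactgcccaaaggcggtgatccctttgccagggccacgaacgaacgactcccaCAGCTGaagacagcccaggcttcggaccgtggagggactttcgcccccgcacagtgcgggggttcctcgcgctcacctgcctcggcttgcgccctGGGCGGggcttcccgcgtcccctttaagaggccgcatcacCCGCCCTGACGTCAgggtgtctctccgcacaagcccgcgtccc
Sv2b: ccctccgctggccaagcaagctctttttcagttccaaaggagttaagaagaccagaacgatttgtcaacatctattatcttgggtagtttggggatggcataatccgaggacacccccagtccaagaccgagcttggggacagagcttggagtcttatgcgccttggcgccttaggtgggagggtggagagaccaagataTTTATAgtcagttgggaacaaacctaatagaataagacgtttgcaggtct

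A GC box was present in the 250 bases of 20 of the 28 genes (71.4%). It was present in 35.4% of all 27025 genes with a promoter entry, whether or not they were tested on the arrays. The E-box was present in 10 (35.7% against 14.7%), and the CRE in 2, Syn1 and Sh3gl2 (7.14% against 1.77%). The RE1 left part was present in Syn1 (3.57% against 0.348%), the right part in Rph3a (3.57% against 6.14%) and the TATA box in Sv2b (3.57% against 14.3%). A gene with several start sites counted once if any of them held the motif. The windows of these genes were also richer in G and C, with a median of 60.8% against 52.4% for all promoters, which bears on every GC-rich motif. Motifs and changes did not go together in every gene. Bsn, Erc2 and Syt3, all called lower on day 9, held 0 of these motifs. Synj1, with a mean change of -0.06, held 4 at its second start site. These are matches of letters only, no binding was measured, and a link between motif and change was not tested.

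The vesicle membrane group holds 4 genes. Syp encodes synaptophysin, the abundant membrane protein that binds synaptobrevin on the vesicle. Syp read 2.32 and 2.53 (control) against 1.97 and 2.20 (knockout) on day 7, then 3.25 and 3.24 against 2.24 and 2.33 on day 9. Control cells of day 9 stood above all other arrays, and the groups did not overlap on either day. Knockout cells held 1.95-fold less on day 9 (-0.96 ± 0.15, adjusted p = 0.0263), against -0.34 ± 0.15 on day 7 (adjusted p = 0.28), with log2 changes given ± the standard error of the fit and n = 2 arrays per group throughout. Sv2a, Sv2b and Sv2c encode the SV2 glycoproteins, transporter-like vesicle proteins through which botulinum toxin A enters terminals. Sv2a read -0.14 and -0.41 in the day 7 controls against -0.94 and -1.05 in the knockouts, and 0.48 and 0.33 in the day 9 controls against -0.74 and -0.77. All 4 knockout arrays lay below all 4 control arrays. The fall was 2.24-fold on day 9 (-1.16 ± 0.15, adjusted p = 0.0199) and -0.72 ± 0.15 on day 7 (adjusted p = 0.0979).

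Sv2b was the one gene of the 34 above control on both days, and neither difference passed the test. Its levels were -4.36 and -4.19 (control) against -4.10 and -3.44 (knockout) on day 7, then -3.09 and -1.46 against -1.19 and -1.96 on day 9. It climbed with time in both genotypes, and its control arrays of day 9 lay 1.63 log2 units apart, more than the genotype difference of 0.70 ± 0.55 (adjusted p = 0.462). Sv2c was dim, at -4.64 and -4.73 in the day 7 controls against -5.44 and -4.78 in the knockouts, and -3.95 and -4.54 in the day 9 controls against -5.52 and -7.65. The lowest of these arrays, knockout day 9 replicate 2, was below background. The day 9 difference of -2.35 ± 0.65 was the lowest of the 34 values and did not pass (adjusted p = 0.0888).

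Synapsins are phosphoproteins that tether vesicles to each other and to actin. Syn1, whose promoter with the RE1 left part and the CRE is printed above, read 2.96 and 2.91 (control) against 2.35 and 2.24 (knockout) on day 7, then 3.39 and 3.09 against 2.25 and 2.38 on day 9. Every knockout array was below every control array. The change was -0.64 ± 0.15 on day 7 (adjusted p = 0.118) and -0.93 ± 0.15 on day 9 (adjusted p = 0.0294). Syn2 read 0.96 and 0.72 in the day 7 controls against 0.64 and 0.34 in the knockouts, and 2.74 and 2.57 in the day 9 controls against 1.87 and 1.73. Here the day set the level more than the genotype did, with all day 9 arrays above all day 7 arrays in both genotypes. On day 9 knockout cells held 1.81-fold less (-0.85 ± 0.17, adjusted p = 0.0417). Syn3, the third family member, read -3.09 and -2.75 (control) against -4.18 and -3.59 (knockout) on day 9 and did not pass (-0.96 ± 0.25, adjusted p = 0.0797).

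Synaptotagmins carry the calcium sensors of fusion, and 5 of the 7 listed were tested. Syt1, the sensor for fast synchronous release, read 3.21 and 2.95 (control) against 2.54 and 2.18 (knockout) on day 7, then 3.98 and 3.56 against 3.05 and 2.67 on day 9. The groups did not overlap on either day, but the change passed on neither, at -0.72 ± 0.23 (adjusted p = 0.182) and -0.91 ± 0.23 (adjusted p = 0.0743). It did pass for the mean of both days (-0.81 ± 0.16, adjusted p = 0.0265). Syt7, the high-affinity sensor of slow, asynchronous release, read -3.18 and -3.28 in the day 7 controls against -4.29 and -4.48 in the knockouts, and -2.99 and -3.35 in the day 9 controls against -4.06 and -3.90. It had the largest day 7 fall of the 34 genes, 2.23-fold (-1.16 ± 0.17, adjusted p = 0.0669), and passed on day 9 (-0.81 ± 0.17, adjusted p = 0.0486). Among genes above background on all arrays the day 7 difference passed too, with the same change and an adjusted p of 0.0414.

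Syt4 and Syt11 lack the usual calcium binding of the first C2 domain, and Syt4 is known from dense core vesicles. Syt4 read 1.02 and 1.01 (control) against 0.29 and 0.38 (knockout) on day 7, then 1.40 and 1.67 against 0.27 and -0.30 on day 9. Control arrays were higher on day 9 than on day 7 and knockout arrays lower, which left the widest called gap among the genes above background on all arrays, 2.94-fold on day 9 (-1.56 ± 0.21, adjusted p = 0.0208). Syt11 read 4.09 and 3.85 in the day 7 controls against 3.34 and 3.18 in the knockouts, and 3.46 and 3.36 in the day 9 controls against 2.84 and 2.60. Its knockout arrays lay below control on both days by nearly the same amount, -0.71 ± 0.16 and -0.69 ± 0.16, which passed for the mean of both days (-0.70 ± 0.11, adjusted p = 0.0165). Syt3, another high-affinity calcium sensor, read -2.96 and -2.60 (control) against -3.15 and -2.85 (knockout) on day 7, then -0.68 and -0.76 against -2.02 and -1.99 on day 9. The genotypes overlapped on day 7 and stood apart on day 9, by 2.44-fold (-1.29 ± 0.18, adjusted p = 0.0208).

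Of the 6 fusion machinery genes, 1 was called on day 9 and all 6 values were negative. Vamp1 and Vamp2 encode the synaptobrevins, the SNARE proteins of the vesicle. Vamp1, the form that prevails in spinal motor neurons, read -2.14 and -2.41 in the day 7 controls against -2.73 and -2.99 in the knockouts, and -1.01 and -1.24 in the day 9 controls against -2.26 and -2.04. The genotypes did not overlap on either day, and the day 9 fall was 2.03-fold (-1.02 ± 0.18, adjusted p = 0.0338). Vamp2 read 2.97 and 2.97 (control) against 2.81 and 2.71 (knockout) on day 7, then 3.29 and 3.14 against 2.73 and 3.21 on day 9. It changed little between groups, and on day 9 the arrays of the genotypes overlapped (-0.24 ± 0.18, adjusted p = 0.447). Vamp2 lies on chromosome 11, where 1250 genes tested had a median change of 0.38 on day 9, against medians between -0.0038 and 0.0903 on the other chromosomes with values, and the part of this shift in the Vamp2 value was not tested.

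Snap25 and Stx1a encode the SNARE proteins of the plasma membrane. Snap25 read 0.55 and 1.33 in the day 7 controls against 0.08 and 1.34 in the knockouts, and 1.24 and 1.22 in the day 9 controls against -0.09 and 0.14. On day 7 the replicates of each genotype lay far apart and overlapped, and on day 9 the change of -1.20 ± 0.43 did not pass (adjusted p = 0.148). Stx1a read 0.34 and 0.51 (control) against 0.04 and 0.21 (knockout) on day 7, then 0.61 and 0.31 against -0.68 and -0.16 on day 9. All knockout arrays were below all control arrays, and the mean of both days passed (-0.59 ± 0.15, adjusted p = 0.0478). Complexins bind the assembled SNARE complex and hold it until calcium arrives. Cplx1 read 1.74 and 1.63 in the day 7 controls against 0.53 and 0.68 in the knockouts, and 2.66 and 1.68 in the day 9 controls against 0.75 and 0.90. Its change was -1.08 ± 0.30 on day 7 and -1.34 ± 0.30 on day 9 (adjusted p = 0.0556), and the mean of both days passed at 2.32-fold lower (-1.21 ± 0.21, adjusted p = 0.0205), with control day 9 replicate 1 well above its partner. Cplx2 read 5.88 and 5.92 (control) against 5.37 and 5.15 (knockout) on day 9, a change that did not pass (-0.64 ± 0.27, adjusted p = 0.202).

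Rab3 proteins are the GTPases that mark vesicles for docking, and rabphilin, from Rph3a, is an effector that binds them. Rab3a read 4.19 and 4.00 (control) against 3.67 and 3.56 (knockout) on day 7, then 4.44 and 4.12 against 2.96 and 3.39 on day 9. Each knockout array lay below each control array, and the fall was 2.15-fold on day 9 (-1.10 ± 0.20, adjusted p = 0.0353). Rab3c read 3.66 and 3.50 in the day 7 controls against 2.72 and 2.94 in the knockouts, and 3.57 and 3.12 in the day 9 controls against 2.55 and 2.47. The genotypes stood apart on both days by similar amounts, -0.75 ± 0.19 and -0.83 ± 0.19, and the mean of both days passed (-0.79 ± 0.13, adjusted p = 0.0182). Rph3a read -5.41 and -5.08 (control) against -5.59 and -5.27 (knockout) on day 7, then -3.56 and -2.80 against -4.75 and -5.43 on day 9. Only the control cells of day 9 were above background on both arrays, and that is also what let the gene into the test. Its fall of 3.76-fold on day 9 (-1.91 ± 0.33, adjusted p = 0.0335) therefore rests on that group, and it was -1.02 (adjusted p = 0.214) after another background correction, normexp.

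Active zone genes were called lower in knockout cells in 3 of 8 tested on day 9 and in 5 of 8 for the mean of both days. Bsn and Pclo encode bassoon and piccolo, the very large scaffold proteins that organise the zone. Bsn read 1.21 and 1.27 in the day 7 controls against 0.66 and 0.75 in the knockouts, and 1.61 and 1.55 in the day 9 controls against 0.41 and 0.39. Replicates agreed closely, the genotypes were apart on both days, and the day 9 fall of 2.27-fold had the smallest adjusted p of the list (-1.18 ± 0.12, adjusted p = 0.0148). Pclo read 1.80 and 1.32 (control) against 0.72 and 0.37 (knockout) on day 7, then 1.51 and 1.25 against 0.63 and 0.49 on day 9. All knockout arrays lay below all control arrays, with -1.02 ± 0.22 on day 7 and -0.82 ± 0.22 on day 9, and the mean of both days passed (-0.92 ± 0.15, adjusted p = 0.0184).

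Erc2 encodes a CAST family scaffold protein that binds bassoon, piccolo and RIM. It read 2.74 and 2.26 in the day 7 controls against 1.85 and 1.49 in the knockouts, and 3.14 and 2.75 in the day 9 controls against 1.79 and 1.60. Knockout arrays were lower throughout, by 2.38-fold on day 9 (-1.25 ± 0.23, adjusted p = 0.0378). Ppfia2, for liprin-alpha-2, an organiser of release sites, read -0.93 and -0.81 (control) against -1.44 and -1.19 (knockout) on day 7, then -0.88 and -0.79 against -1.90 and -2.02 on day 9. Control levels were nearly the same on both days while knockout levels were lower on day 9, and the fall there was 2.18-fold (-1.13 ± 0.15, adjusted p = 0.0201).

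RIM proteins, from Rims1 and Rims2, tie vesicles to calcium channels, and Munc13 proteins, from Unc13a and Unc13b, prime vesicles for fusion. Rims1 changed by -0.66 ± 0.28 on day 7 and -0.77 ± 0.28 on day 9 (adjusted p = 0.147). Rims2 changed by 0.00 ± 0.20 and -0.40 ± 0.20 (adjusted p = 0.265). Neither passed for the mean of both days. Unc13b read 2.73 and 2.55 in the day 7 controls against 2.14 and 2.00 in the knockouts, and 2.40 and 2.40 in the day 9 controls against 2.00 and 1.94. The control arrays were all above the knockout arrays, and the mean of both days passed (-0.50 ± 0.09, adjusted p = 0.0237). Unc13a was dimmer, and its mean change of -0.67 ± 0.20 did not pass (adjusted p = 0.0689).

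The recycling group had the smallest changes, with a median of -0.63 on day 9 and 1 of 5 genes called. Snap91 encodes AP180, which assembles clathrin on vesicle membrane. It read 1.13 and 0.85 (control) against 0.63 and 0.61 (knockout) on day 7, then 1.39 and 0.93 against 0.18 and -0.06 on day 9. The genotypes did not overlap on either day, and the day 9 fall was 2.15-fold (-1.10 ± 0.20, adjusted p = 0.0357). Dnm1, for the dynamin that cuts the vesicle neck, changed by -0.38 ± 0.17 and -0.59 ± 0.17 and passed for the mean of both days (-0.49 ± 0.12, adjusted p = 0.0452). Sh3gl2, for endophilin A1, a membrane-bending partner of dynamin whose promoter holds the other CRE, read -1.14 and -1.53 in the day 7 controls against -1.65 and -1.91 in the knockouts, and -0.40 and -0.87 in the day 9 controls against -1.53 and -1.48. It did not pass on day 9 (-0.87 ± 0.22, adjusted p = 0.0718) but did for the mean of both days (-0.66 ± 0.15, adjusted p = 0.039). Amph, for the membrane-bending protein amphiphysin, changed by -0.63 ± 0.18 on day 9 (adjusted p = 0.101). Synj1, for the lipid phosphatase that helps strip the clathrin coat, read -3.39 and -3.06 (control) against -3.28 and -3.05 (knockout) on day 7, then -3.14 and -3.19 against -3.41 and -3.24 on day 9. Its arrays lay within 0.36 log2 units of each other, and the mean change was -0.06 ± 0.12 (adjusted p = 0.777).

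**Figure D2:**
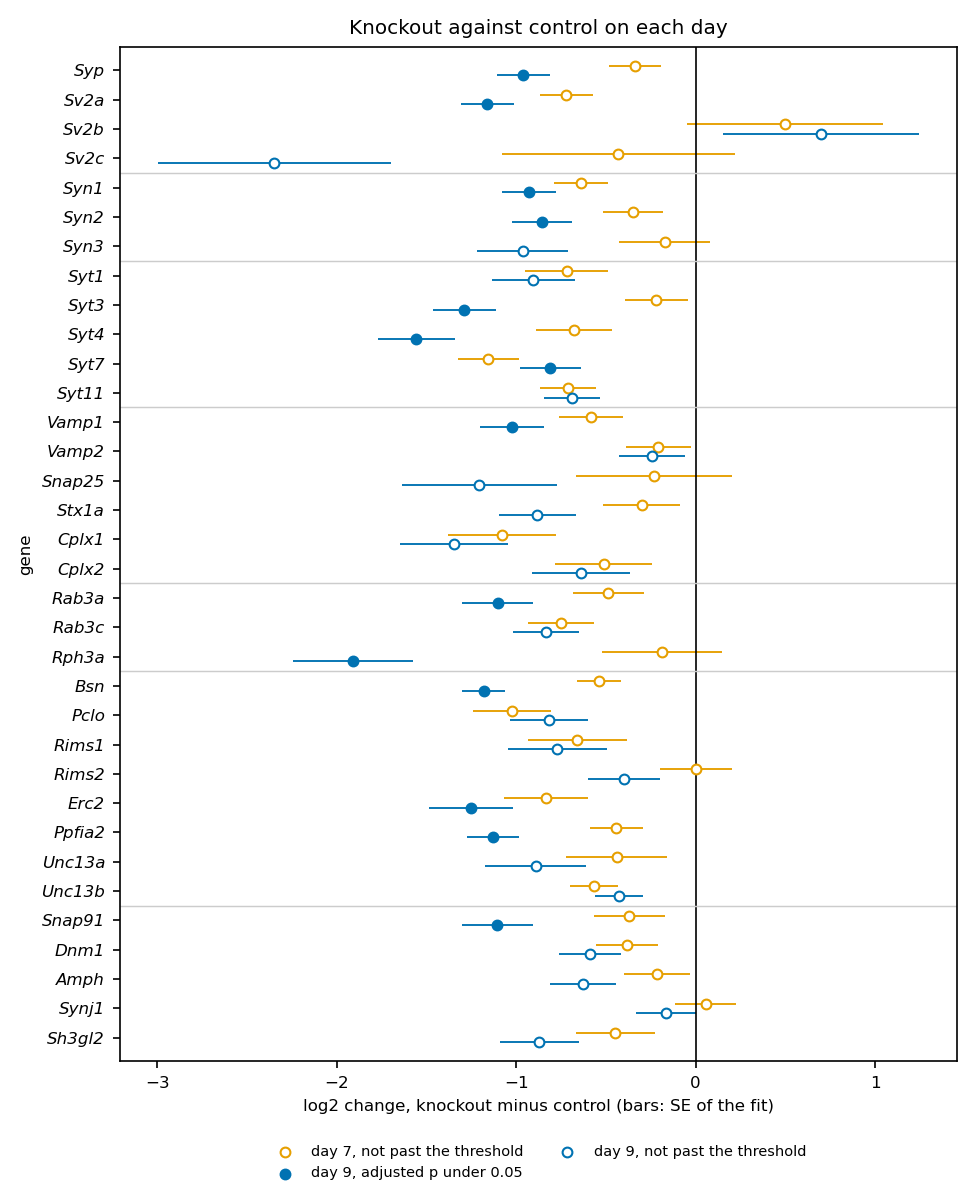
Log2 change of knockout against control for each of the 34 genes on day 7 (orange) and day 9 (blue), with bars for the standard error of the fit and filled points for an adjusted p under 0.05. All filled points are day 9 and lie left of 0, from Syt7 at -0.81 to Rph3a at -1.91, and Sv2b alone has both points right of 0.

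Changes from day 7 to day 9 were read in each genotype by itself, and the test of whether they differ is the interaction given further on. In control cells the median change was 0.27, against -0.12 for all genes, and 6 of the 34 genes (17.6%) were called higher and 0 lower, where 4.10% of all genes were called higher. Rph3a is among the 6, which are 5 without it. Both day 9 arrays lay above both day 7 arrays in 16 of the 34, Rph3a again among them, against 18.9% of all genes. In knockout cells the median was -0.10, against -0.12 for all genes, with 2 called higher and 1 lower, where 4.15% of all genes were higher and 4.19% lower. The control day 9 arrays also enter the day 9 genotype comparison, and the knockout day 9 arrays do too, so the comparisons are not independent.

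The 6 genes called higher with time in control cells came from 5 of the 7 roles. Syt3 rose 4.17-fold (2.06 ± 0.18, adjusted p = 0.00712) and Syn2 3.52-fold (1.82 ± 0.17, adjusted p = 0.0072). Vamp1 rose 2.22-fold (1.15 ± 0.18, adjusted p = 0.0205), Syp 1.76-fold (0.82 ± 0.15, adjusted p = 0.0291) and Sv2a 1.61-fold (0.68 ± 0.15, adjusted p = 0.0453). Rph3a changed by 2.06 ± 0.33 (adjusted p = 0.0223), with 1 of 2 day 7 arrays above background. In knockout cells Syn2 rose 2.48-fold (1.31 ± 0.17, adjusted p = 0.00915) and Syt3 1.99-fold (0.99 ± 0.18, adjusted p = 0.023), and Ppfia2 fell by 0.65 ± 0.15 (adjusted p = 0.0461). Sv2b changed by 2.00 ± 0.55 in control cells (adjusted p = 0.0782) and 2.20 ± 0.55 in knockout cells (adjusted p = 0.0598), and did not pass.

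These time counts also rested on single arrays, and the counts over all genes fell too on every omission of an array. The control count of 6 became 3 and 0 on leaving out replicates 1 and 2 of control day 7 in turn, and 2 on leaving out replicate 2 of control day 9. Leaving out replicate 1 of control day 9 took the control median to 0.12. The knockout count of 3 became 1 and 0 on leaving out replicates 1 and 2 of knockout day 7, and 1 and 0 for those of knockout day 9.

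**Figure D3:**
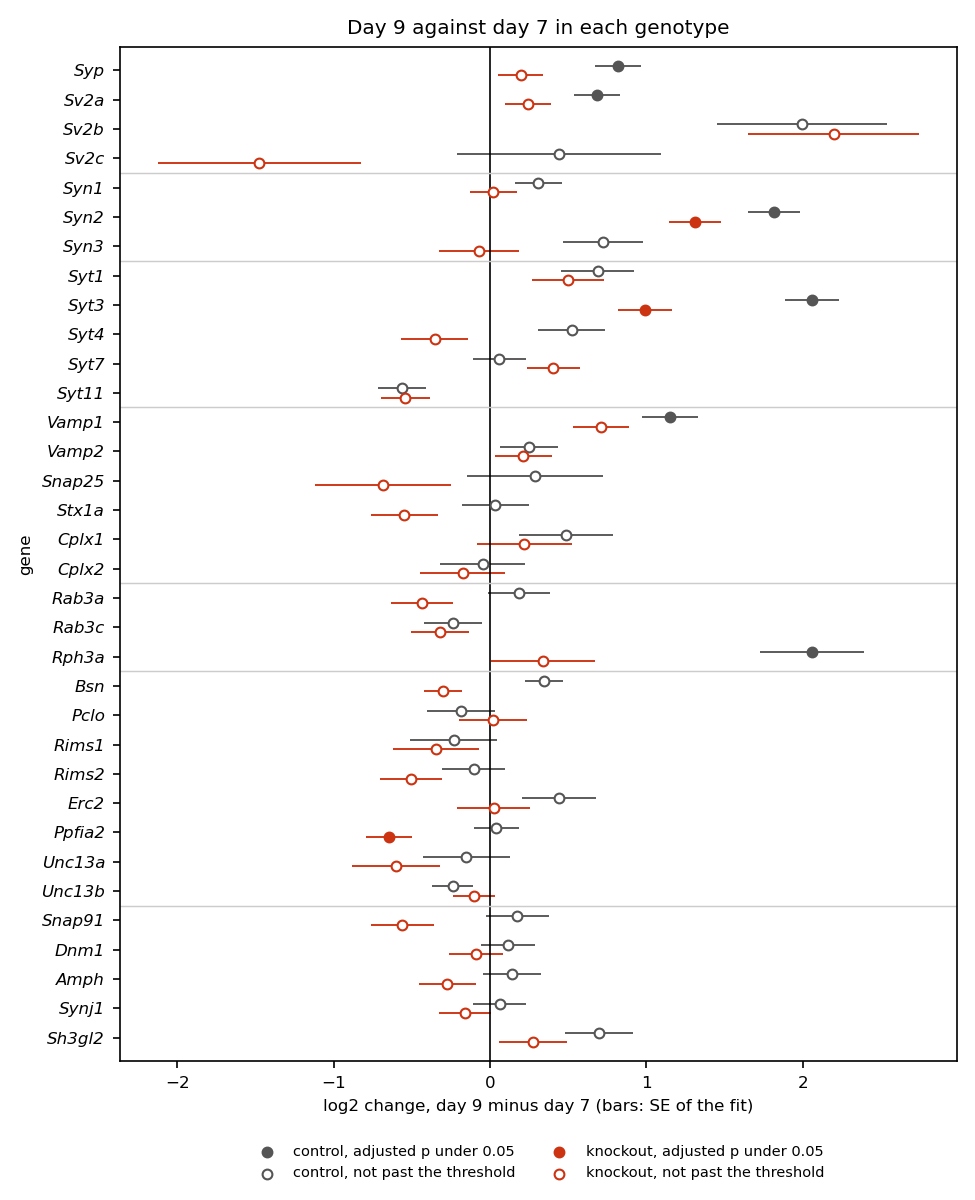
Log2 change of day 9 against day 7 for each of the 34 genes in control cells (grey) and knockout cells (red), with bars for the standard error of the fit and filled points for an adjusted p under 0.05. Grey points lie right of red points in 29 genes, and the filled points at the right are Syn2 and Syt3 in both genotypes and Syp, Sv2a, Vamp1 and Rph3a in control cells.

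Whether the genotype difference itself grew from day 7 to day 9 was tested as an interaction. The change of the difference had a median of -0.42 and was negative in 29 of the 34 genes, but 0 passed in limma's test, with 7 lower at an unadjusted p under 0.05 and 0.00406% of all genes called. Bsn (-0.64 ± 0.17, adjusted p = 0.747) and Syt3 (-1.07 ± 0.25, adjusted p = 0.718) were among the 7. So was Rph3a (-1.72 ± 0.47, adjusted p = 0.747), which entered the test only through control cells of day 9, where it was high. In 3 genes, Sv2c, Syt4 and Bsn, both day 9 arrays lay above both day 7 arrays in control cells and below them in knockout cells, a pattern that 1.12% of all genes showed. So the calls on day 9 and their absence on day 7 do not show that the days differ.

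Genes of the same processes outside the list were read the same way. Of 46 other vesicle and release genes measured, 13 (28.3%) were called lower on day 9 and 0 higher, with a median of -0.43. The largest changes were those of Synpr, for synaptoporin, a relative of synaptophysin (3.45-fold lower), Sncg, a synuclein (2.57-fold lower), and Syt16 (2.50-fold lower). The 13 include the synuclein gene Sncb, which entered the test only through control cells of day 9 and was above background on 1 of 2 knockout arrays there, so it has no exact fold, and 12 were called without it. Without control day 9 replicate 1, or without either knockout day 9 replicate, 0 of these were called, and the other 5 omissions gave between 5 and 7. Of 28 other clathrin and recycling genes, 2 were called lower (7.14%), Dnajc6, for the uncoating factor auxilin (-1.78 ± 0.32, adjusted p = 0.0354, with 1 of 2 knockout arrays above background, so that the size is uncertain), and Pip5k1c, for the lipid kinase of the terminal (-0.65 ± 0.12, adjusted p = 0.0361), with a median of -0.14 that became 0.07 with arrays centred on their median. Without knockout day 9 replicate 1 there was 1 call, and 0 without any of the other arrays.

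Relatives of these genes that many tissues express were read beside them. Of 20 widely expressed paralogues, Syngr2, a synaptogyrin of non-neuronal cells, was 1.55-fold higher on day 9 (0.63 ± 0.13, adjusted p = 0.0450), Stx3, a syntaxin also found in epithelia, was 2.37-fold lower (-1.24 ± 0.15, adjusted p = 0.0182), and the median was 0.16. Leaving out any 1 array left Syngr2 uncalled, and Stx3 was uncalled without control day 9 replicate 1 or either knockout day 9 replicate. Averaged over days, Sytl4, a Rab effector of secretory granules, was also higher (0.78 ± 0.14, adjusted p = 0.0197), and Sh3gl3, an endophilin, fell with time in knockout cells by 0.74 ± 0.15 (adjusted p = 0.0358). Of the 374 genes called higher on day 9 over the whole array, 116 lay on chromosome 11, and the part of its shift in these values was not tested.

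Averaged over both days, 15 of the 46 other release genes were called lower and 1 higher, where 5.49% of all genes were called higher. Without knockout day 9 replicate 2 there was 1 call, without knockout day 9 replicate 1 there were 8, without either control day 7 replicate 11, without knockout day 7 replicates 1 and 2 in turn 10 and 9, and without control day 9 replicate 1 there were 9. With no filter on dim probes there were 0. Those furthest down were Synpr (-1.35 ± 0.22), Syt16 (-0.97 ± 0.14), Apba1, for the Munc18 partner Mint1 (-0.96 ± 0.14), and Sncg (-0.92 ± 0.13). The one higher was Syt6, a synaptotagmin, named after its value was seen (0.47 ± 0.09, adjusted p = 0.0258), and its call was lost in 7 of 8 omissions of an array. Over time in control cells, 6 of the 46 other release genes were called higher and 1 lower, where 3.27% of all genes were lower. Leaving out control day 7 replicates 1 and 2 in turn gave 3 and 0 calls, and those of control day 9 gave 4 and 3. Syt17 rose by 1.60 ± 0.17 (adjusted p = 0.00863), Prrt2, a SNARE regulator, by 1.53 ± 0.24 (adjusted p = 0.0214) and Syt16 by 1.21 ± 0.20 (adjusted p = 0.0247). The rise of Sncb by day 9 came to at least 2.57-fold (adjusted p = 0.00712), with both day 7 arrays below background, a bound taken against the higher of its own signal and the dimmest signal above background on each array. In knockout cells 4 were higher and 1 lower. Leaving out knockout day 7 replicates 1 and 2 in turn gave 2 and 1 calls, those of knockout day 9 gave 1 and 2, and either control day 7 replicate gave 3. Syt17 rose by 1.44 ± 0.17 (adjusted p = 0.00770), Rab27b, a vesicle GTPase, by 0.75 ± 0.15 (adjusted p = 0.0318), and Sncg fell by 1.94 ± 0.19 (adjusted p = 0.00608). The rise of Sncb came to at least 1.20-fold there (adjusted p = 0.0293), with no day 7 array and 1 of 2 day 9 arrays above background.

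**Figure D4:**
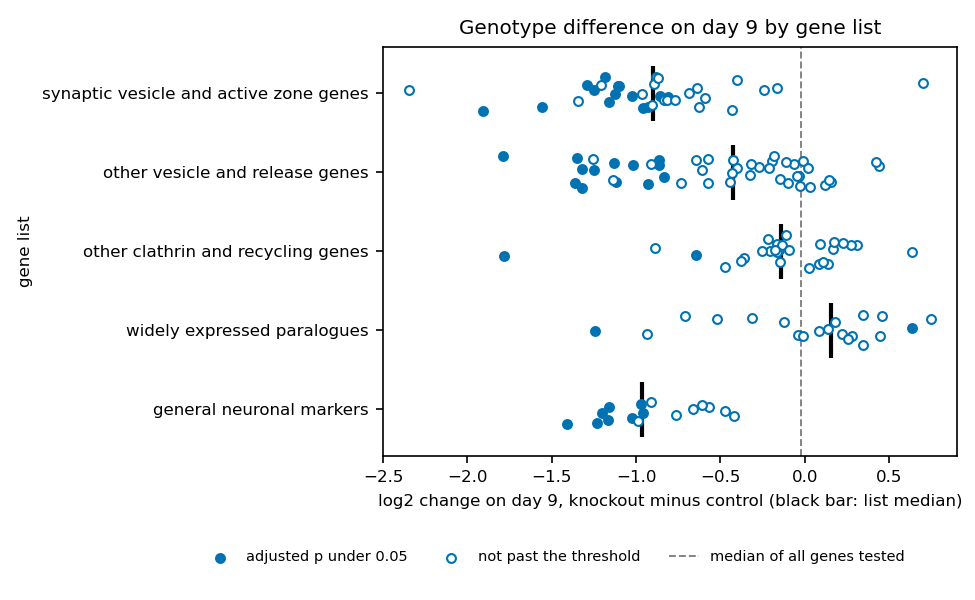
Log2 change of knockout against control on day 9 for each gene of 5 lists, filled where the adjusted p was under 0.05, with a black bar at the list's median and a dashed line at the median of all genes tested, -0.02. The medians are -0.90 for the synaptic vesicle and active zone genes, -0.43 for other release genes, -0.14 for other recycling genes, 0.16 for widely expressed paralogues and -0.96 for general neuronal markers.

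General markers of neurons moved with genotype by a similar amount. Of 16 measured, 8 were called lower on day 9, among them Nefl, a neurofilament (-1.41 ± 0.21, adjusted p = 0.0237), Ina, another neuronal intermediate filament (-1.23 ± 0.17, adjusted p = 0.0211), and Stmn2, a tubulin regulator of axons (-1.20 ± 0.14, adjusted p = 0.0165). Their median change was -0.96 on day 9 and -0.52 on day 7, next to -0.90 and -0.44 for the vesicle and active zone genes, and 20 of the 34 genes lay above the neuronal median on each day. The log2 of their summed signal on day 9 was 9.10 and 8.79 (control) against 7.88 and 7.97 (knockout), and its part in the fall of the 34 genes was not tested. Of the neuronal markers 0 were called without control day 9 replicate 1 or either knockout day 9 replicate, and 5 or 6 without any of the other 5 arrays.

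The lists parted over time. In control cells the neuronal markers had a median change of -0.37 from day 7 to day 9, with 3 called lower and 0 higher. In knockout cells their median change was -0.69, with 7 called lower. Among all genes 3.27% were called lower in control cells and 4.19% in knockout cells. The 3 became 0 without replicate 2 of control day 7 or of control day 9, 1 without replicate 1 of control day 7 or any 1 knockout array, and 2 without replicate 1 of control day 9. The 7 became 2 without knockout day 7 replicate 2 or either knockout day 9 replicate. In each genotype the change of 33 of the 34 genes lay above the neuronal median, which was negative, so this count is not one of larger changes. Set against the neuronal median on the same array, after each gene's own mean was removed, the median of the 34 genes was -0.25 and -0.42 (control) against -0.36 and -0.23 (knockout) on day 7, then 0.29 and 0.25 against 0.38 and 0.34 on day 9. All day 9 arrays lay above all day 7 arrays on this measure, and the genotypes overlapped on day 7. On day 9 both knockout arrays lay above both control arrays, with all of them within 0.14 of each other.

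**Figure D5:**
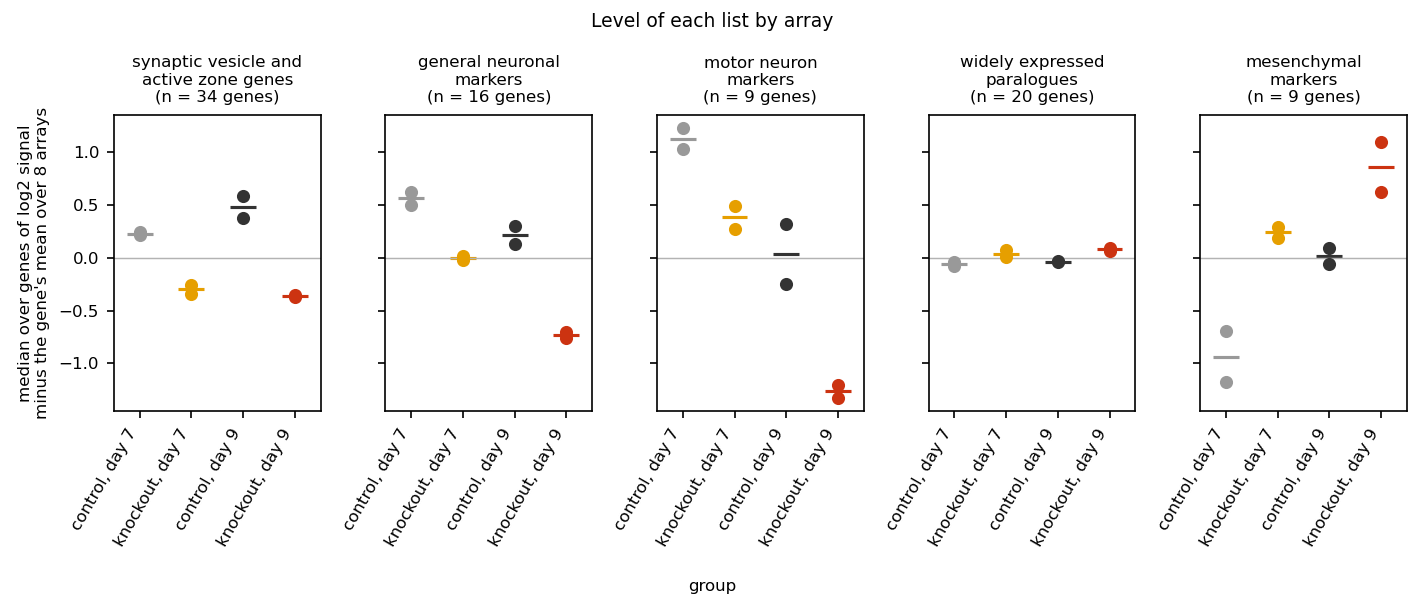
Median over genes of log2 signal minus each gene's mean over 8 arrays, for 5 gene lists, with one point per array and a line at the mean of the 2 arrays of a group. Knockout arrays lie below control arrays of the same day for the vesicle and active zone genes, neuronal markers and motor neuron markers, and above them for mesenchymal markers.

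Markers of other cell types moved too, and their part in these results was not tested. Motor neuron markers were called lower in 4 of 9 on day 9, among them Slc5a7 (-2.73 ± 0.40, adjusted p = 0.0243), Prph (-1.92 ± 0.25, adjusted p = 0.0203) and Slc18a3 (-1.44 ± 0.23, adjusted p = 0.0278), while Lhx3 was higher (0.91 ± 0.16, adjusted p = 0.0327). Slc5a7 and Slc18a3 carry choline into the terminal and acetylcholine into its vesicles. Among all genes 1.52% were called higher on day 9. Of those 374 genes, 116 lay on chromosome 11, and the part of its shift in the markers called higher was not tested. Mesenchymal markers were called higher in 3 of 9, Thy1, which neurons also express (2.57 ± 0.30), Col1a1 (1.51 ± 0.30) and Pdgfrb (1.21 ± 0.19), while 2 of the 9 lay below control. On day 9 their summed log2 signal was 6.90 and 6.85 (control) against 7.50 and 7.28 (knockout). Progenitor markers were called higher in 3 of 12, Olig2 (2.93 ± 0.37), Hes5 (1.85 ± 0.34) and Pax6 (1.65 ± 0.33, with 1 of 2 control arrays above background). Of the 12, 4 lay below control, and the list median was 0.10. Their summed log2 signal ran from 8.65 to 8.90 in both genotypes. Of 7 astroglial markers measured, Sox9 was higher (1.53 ± 0.32, adjusted p = 0.0476), and Gfap and S100b were not above background on both arrays of any group. Of 8 oligodendrocyte markers 0 were called on day 9 in limma's test, with 1 higher and 1 lower at an unadjusted p under 0.05, and of 7 cycling markers 0 were called, with 5 higher. Of 6 pluripotency markers 1 was called lower, Dppa5a (-1.82 ± 0.29, adjusted p = 0.0278). All 6 lay below control, with a median of -1.14 and 5 lower at an unadjusted p under 0.05 in limma's test. Of 7 endocrine markers Pcsk2 was called lower (-0.76 ± 0.16, adjusted p = 0.0476). All 7 lay below control, with a median of -0.63 and 6 lower at that unadjusted p.

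Probes of the same gene agreed in the sign of the genotype change, but not always in its size or call. In the 9 genes with more than 1 probe above background, all probes of a gene lay below control on both days. On day 9 the dimmer probes of Syn2 (-0.45 ± 0.21, adjusted p = 0.252), Syt3 (-1.10 ± 0.25, adjusted p = 0.0619) and Erc2 (-0.74 ± 0.29, adjusted p = 0.189) did not pass in limma's test. A dimmer probe of Rab3c and of Pclo passed there, while the brightest did not. For the mean of both days those of Syt3, Rab3c and Pclo passed, and those of Syn2, Rims1, Erc2, Dnm1 and Sh3gl2 did not. For Cplx2 a dimmer probe passed in limma's test (-0.82 ± 0.20, adjusted p = 0.0427), while the brightest did not (adjusted p = 0.0952). Over time the probes differed in sign in 5 of the 9 genes, most widely in Cplx2 and Pclo. For Cplx2, 1 of 4 probes rose by 1.16 ± 0.20 in control cells (adjusted p = 0.0269) and by 1.38 ± 0.20 in knockout cells (adjusted p = 0.0130), while the other 3, including the brightest, which stands for the gene here, changed by between -0.05 and -0.19 and between -0.17 and -0.27. For Pclo, the probes of one transcript changed by -0.18 and -0.77 in control cells and those of another by 0.90 and 1.16, none past the threshold. These adjusted p-values are over 33172 probes.

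Scaling sets where 0 lies. With arrays centred on their median instead, the day 9 genotype change of the median gene became 0.19 in place of -0.02. On day 7 it became 0.08 in place of -0.05, averaged over days 0.13 in place of -0.04, and over time in knockout cells 0.04 in place of -0.12. The median of the 34 genes on day 9 moved with it, from -0.90 to -0.69, and the share of all calls on day 9 that were higher went from 27.8% to 65.9%. No gene of the 34 was called higher in knockout cells than in control cells under any setting.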

How the data were processed

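RNA from the 8 samples was labelled with Cy3 and hybridised to 1-colour Agilent arrays with 62976 spots each. The submitters' processing notes name Agilent Feature Extraction 10.5.1. The deposited scanner values used here were spot intensities already corrected for background, per the file headers. A second table, deposited by the authors, holds log2 values, and its columns share a median of 5.80. Each of its columns correlated best with the scanner values of its own array (lowest r 0.998), so scale and direction match, and the offset stays unknown. It served as an alternative.

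Left out were 3671 control spots and, per array, 104 to 166 outlier spots. Saturated spots numbered 0. Spots of a probe were averaged as log2 intensity, which gave 55681 probes, and each array's 75th percentile over non-control spots was subtracted. Probes were named through RefSeq accessions and a mouse gene table on GRCm38.p6, which named 26300 of them (47.2%). Kept probes were well above background in both replicates of 1 or more groups, and the brightest kept probe stood for a gene. This left 24623 genes, 15030 of them with a symbol. All arrays were on 1 slide and in 1 scan, so neither is a batch between groups. Brightness did split by replicate number. The 75th percentile was 1088 to 1691 on replicate 1 arrays and 649 to 856 on replicate 2 arrays, and each group holds both.

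One two-sided fit with limma 3.58.1 in R 4.3.3 (lmFit, eBayes, 4 group means, 4 residual and 2.53 prior degrees of freedom) gave 6 contrasts, adjusted by Benjamini-Hochberg over all genes tested. The number of arrays limits the precision. The planned mean signal was not among the columns used, so normexp (offset 50) ran on the median spot signal. Named are all listed genes, of each other presynaptic list up to 4 called genes with the largest change per comparison, and markers that were called or not above background. The values of 1 called marker are not reported here. The synaptic vesicle and active zone genes and all other lists were chosen with earlier results of these data known. Replicate numbers were not taken as pairs, since the labels do not say what they mark. The alternatives were normexp, quantile normalization, a median shift, no filter, a stricter filter, the mean of a gene's probes, the authors' table, a replicate block, only the arrays compared, and leaving out each array.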

Additional observations from a re-analysis of the deposited data

Results flagged for a closer look

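In 3 genes the control cells and the knockout cells went opposite ways from day 7 to day 9: both day 9 arrays lay above both day 7 arrays in control cells and below them in knockout cells. These are Sv2c, Syt4 and Bsn. Of all genes tested, 1.12% did so. The interaction of genotype and day was -1.92 ± 0.92 for Sv2c (limma, adjusted p = 0.848), -0.88 ± 0.30 for Syt4 (adjusted p = 0.825) and -0.64 ± 0.17 for Bsn (adjusted p = 0.747), none past the threshold. For Sv2c, knockout day 9 replicate 2 was below background and lay 2.13 log2 units under its partner.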

How the results depend on the processing

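The 34 genes gave 3388 values under alternatives: 3035 kept their side of the threshold, 313 lost a call, 40 gained one and 0 reversed a call, while 89 uncalled values changed sign. For genotype on day 9 (14 calls, median -0.90), normexp gave 5 calls and -0.79, the median shift 9 and -0.69, and both no filter and only the arrays compared gave 0. Leaving out each array gave 0 to 8 calls and medians from -1.07 to -0.75. No filter tested more genes, 37256, and only the arrays compared left fewer arrays; other causes were not tested. On day 7 the stricter filter gave 1 call (Syt7), normexp a median of -0.36 and the median shift -0.32. For the mean of both days (23, -0.73), no filter gave 2 calls, leaving out each array 4 to 21, normexp a median of -0.63 and the median shift -0.56. Over time in control cells (6, 0.27), no filter and only the arrays compared gave 2 calls each and leaving out each array 0 to 5. The median there was 0.35 after quantile normalization, 0.36 with the authors' table and 0.12 to 0.36 on leaving out each array. In knockout cells (3, -0.10), normexp and no filter gave 1 call each, the stricter filter 5 and leaving out each array 0 to 3, and the median shift turned the median to 0.057. The interaction's median (-0.42) was -0.33 under the median shift and -0.57 to -0.32 on leaving out each array. Where an omission left a group 1 array, that array is assumed to vary like the others.

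With the replicate block the day 9 count was 20, that of both days 26, that of time in control cells 8 and in knockout cells 4. Replicate differences of the groups correlated between -0.25 and 0.46, and every comparison has only 2 numbers. Among all genes the split of calls into higher and lower also moved by over 10 points, with the higher share going, under the median shift from 46.0% to 58.2% (day 7), 37.3% to 71.5% (both days), 55.6% to 67.3% (time, control) and 49.7% to 66.4% (time, knockout), under quantile normalization to 48.1% (both days), and under normexp to 68.7% (time, control). Genes near background, such as Sv2c and Rph3a, are limited by their signal.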
